A study of Rattus norvegicus with 6 samples.

Results

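The inflammatory interleukins and tumour necrosis factor (TNF) family cytokines described here are 10 genes: Il1a, Il1b, Il1rn, Il18, Il33, Il6, Tnf, Ltb, Csf1 and Csf2. They were taken by name as a list, and every probe set that the platform annotation assigns to one of them alone was used, which gave 17 probe sets of 31042 tested, or 10 genes of 14217. All 10 genes were measured, 5 by 1 probe set and 5 by several. The samples were whole ovaries of pregnant female rats, in 6 RNA pools with 1 Affymetrix array each. The 3 overfed pools came from rats given a liquid diet by total enteral nutrition, a feeding tube into the gut, for 28 days with 220 kcal for each kg of body weight to the power ¾, and the 3 lean pools from rats given 155 kcal by the same route. Rats of both groups were mated with lean males, and their ovaries were frozen 4.5 days after mating. The sources used here give no strain, age or number of animals in a pool, so each p-value measures the spread between pools. The comparison asks how overfeeding before conception alters ovarian gene expression, with inflammation among the subjects in the title of the series.

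Interleukin-1 alpha and beta signal through a shared receptor, from which the antagonist Il1rn displaces them, and interleukin-18 and interleukin-33 belong to the same family. Interleukin-6 acts through the common chain Il6st and JAK kinases, whereas TNF and lymphotoxin beta act through TNF receptors, and both routes and that of interleukin-1 reach genes of the NF-kappaB and STAT transcription factors. In the ovary these cytokines come from macrophages, stroma, granulosa and theca cells and are known for their part in ovulation and in the formation and regression of the corpus luteum. The colony-stimulating factors Csf1 and Csf2 sustain and activate macrophages and granulocytes.

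The deposited values are log values, read here as log2, left after subtraction of the 6-array median of each probe set. Differences between pools are therefore known, but neither the level of a cytokine nor whether its signal lay above background is known, and the ovary label could not be checked against marker levels. A pair of arrays stood apart in spread. The SD over all probe sets was 0.29 in overfed pool 1 and 0.24 in lean pool 3, against 0.14 to 0.20 in the other pools. Over 18 hybridization control probe sets the mean was 0.51 in lean pool 3 and -0.24 in overfed pool 3, against -0.0499 to 0.0445 in the other pools. For beta-actin, the 3' value minus the 5' value, a sign of RNA or labelling quality, was 0.36 in lean pool 3 and between -0.0625 and 0.0613 in the others. After the median subtraction this value compares pools only, and the 3' to 5' ratio of a pool is not known. Overfed pool 1 thus stood apart in spread but not in these controls. Several results that rest on overfed pool 1 or lean pool 3 are given with and without them. Markers of oviduct and ciliated epithelium were lower in all 12 measured genes in the overfed pools, with a median difference of -0.79, Foxj1 at -1.06 and Dnai1 at -1.10. At an unadjusted limma p under 0.05, 10 of them were lower, where 4.44% of all genes were lower, and 0 passed the adjusted threshold. These markers moved with the groups, and their part in the cytokine values was not tested. In whole ovaries, fewer cells of a type and less RNA per cell cannot be told apart.

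No cytokine probe set passed the test between overfed and lean ovaries. Of the 17 probe sets, 12 had a higher mean in overfed ovaries and 5 a lower one, with differences between -0.26 and 0.31 on the log2 scale. The median difference was 0.074, against 0.015 over all probe sets, and 54.6% of all probe sets were above 0. Leaving out overfed pool 1 gave -0.0032, and leaving out lean pool 2 gave 0.0038. At an unadjusted p under 0.05 there were 0 cytokine probe sets, where 6.67% of all probe sets passed. After Benjamini-Hochberg adjustment over all probe sets in limma there were 0 as well, as there were over the whole array (0%), and the adjusted p of the cytokines ran from 0.801 to 0.996. The groups did not overlap in 4 of the 17 probe sets, those of Il1b, Il6, 1 of 2 for Tnf and 1 of 4 for Csf1, where 12.7% of all probe sets did not overlap.

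**Figure D1:**
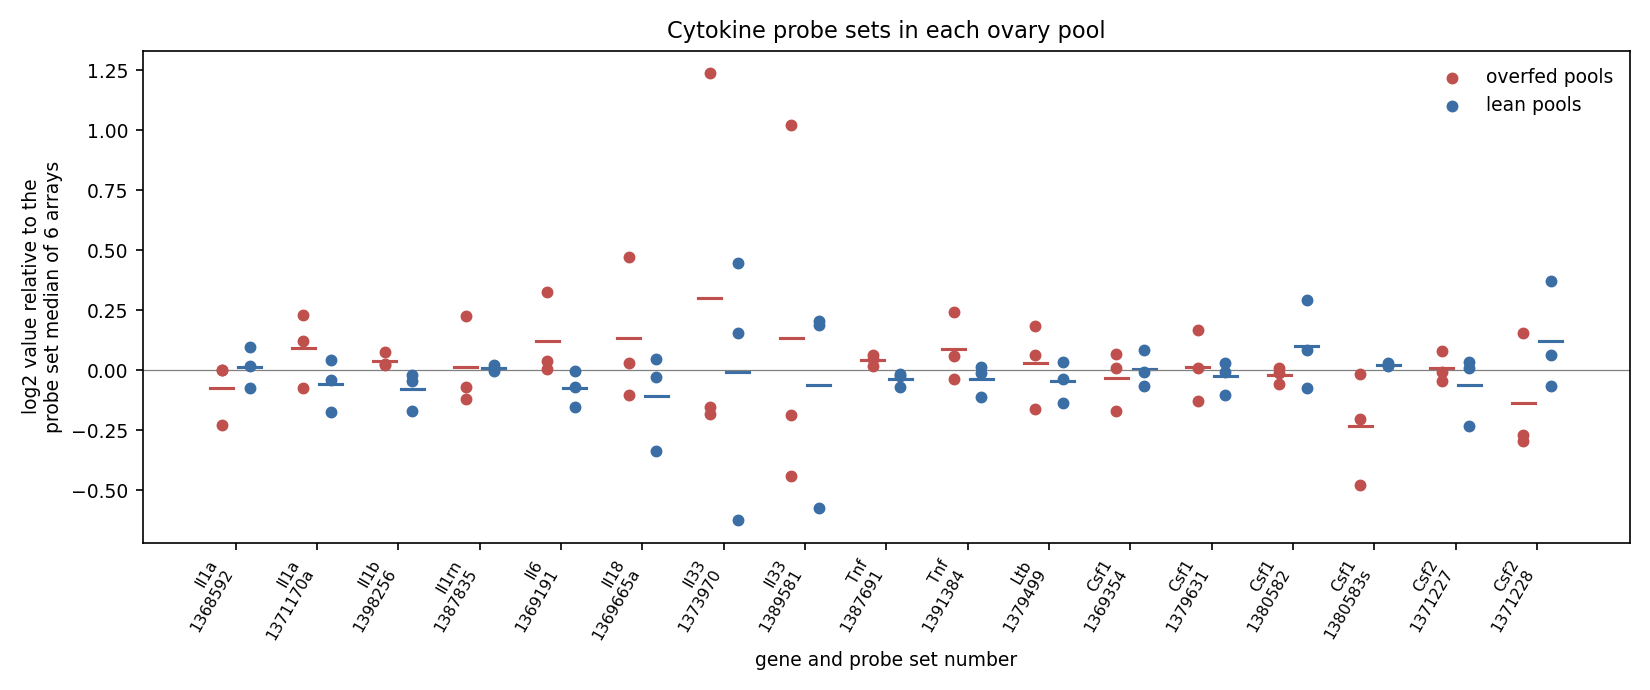
Log2 values of the 17 cytokine probe sets, relative to each probe set's median over the 6 arrays (vertical axis), by gene and probe set number (horizontal axis). Points are pools, 3 overfed to the left and 3 lean to the right of each position, and bars are group means. Il33 spreads over 1.86 and 1.60, far more than the other cytokines.

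**Figure D2:**
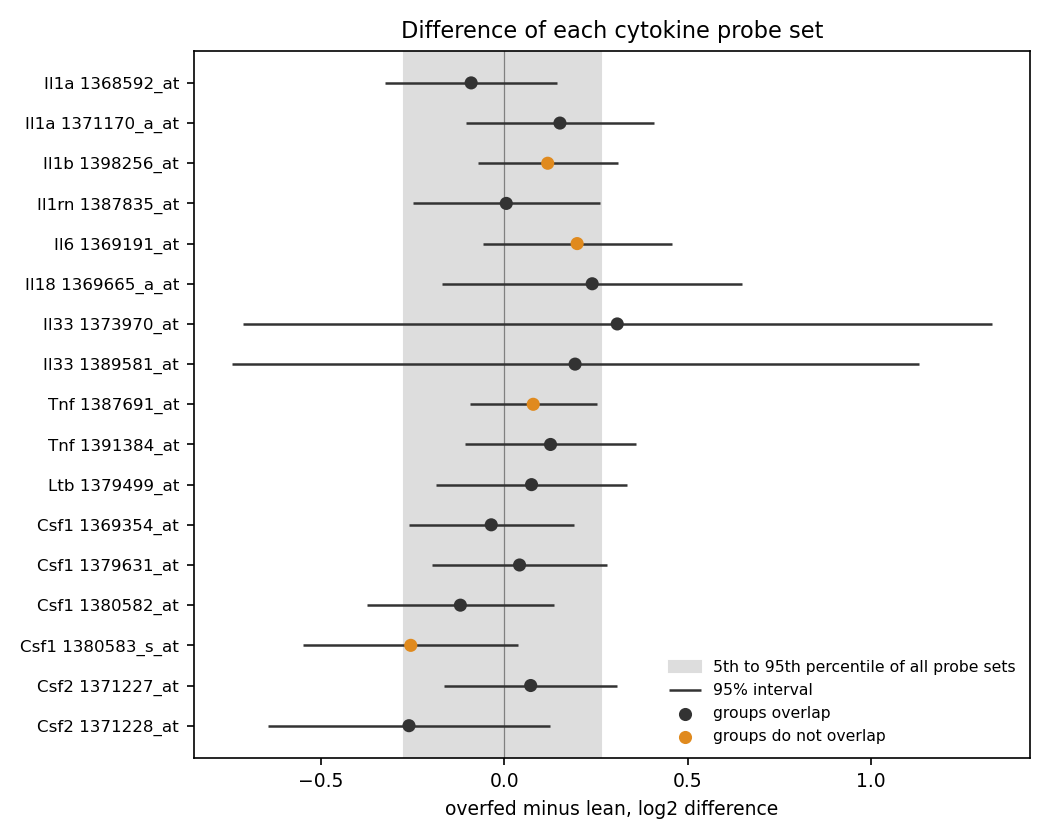
Overfed minus lean difference on the log2 scale for each cytokine probe set (points) with limma's 95% interval (lines). The grey band runs from the 5th to the 95th percentile of the differences of all probe sets (-0.27 to 0.26). Every interval includes 0, and the 4 orange points are probe sets whose groups did not overlap.

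Among the interleukin-1 agonists, Il1b was slightly higher. Il1b, the secreted agonist made by activated macrophages, had relative values of 0.024, 0.019 and 0.075 in overfed pools 1 to 3, against -0.019, -0.047 and -0.17 in lean pools 1 to 3. All overfed pools lay above all lean pools, by a gap of 0.038 between the nearest. The difference was +0.12 (SE 0.081, 95% interval -0.073 to 0.31, limma adjusted p = 0.847), and the exact permutation test over pools, two-sided, had p = 0.1, the smallest that 3 against 3 pools allow. The range of Il1b over the pools, 0.25, was at percentile 20.5 among all probe sets, so the groups separated within a narrow band. Without lean pool 3, the lowest for Il1b, the difference was 0.072.

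Il1a, which is largely cell-associated and released by damaged cells, gave opposite signs in its 2 probe sets. The probe set 1368592_at, designed on a RefSeq mRNA, was at -0.23, 0.00 and 0.00 in the overfed pools and 0.097, -0.073 and 0.018 in the lean pools, a difference of -0.091 (SE 0.099). The probe set 1371170_a_at was at 0.12, -0.073 and 0.23 in the overfed pools and -0.043, 0.043 and -0.18 in the lean pools, a difference of +0.15 (SE 0.11). The groups overlapped in both, and the probe sets parted most in overfed pool 1, by 0.35. Without overfed pool 1 the difference was -0.014 in 1368592_at and 0.14 in 1371170_a_at. Il1rn, the natural receptor antagonist, was at -0.12, -0.071 and 0.22 in the overfed pools and 0.020, 0.0041 and -0.0041 in the lean pools. The lean pools were nearly equal and lay inside the range of the overfed pools, and the difference was 0.0051 (SE 0.11). Its sign turned under several other settings, with a value of -0.0030 under array median centring.

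Il18, an inflammasome-processed cytokine that induces interferon gamma, had the highest difference after Il33. Its values were -0.10, 0.030 and 0.47 in the overfed pools and -0.34, -0.030 and 0.047 in the lean pools. Overfed pool 3 was high and lean pool 1 low, and the other 4 pools were between -0.10 and 0.047, so that the groups overlapped. The difference was +0.24 (SE 0.17, 95% interval -0.17 to 0.65, limma adjusted p = 0.851, exact permutation test p = 0.5). Without overfed pool 3 it was 0.070.

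Il33, a nuclear alarmin of stromal, endothelial and epithelial cells, varied most from pool to pool. The probe set 1373970_at was at 1.24, -0.16 and -0.18 in the overfed pools and 0.16, -0.63 and 0.45 in the lean pools. The probe set 1389581_at followed it with 1.02, -0.44 and -0.19 in the overfed pools and 0.20, -0.57 and 0.19 in the lean pools, and these never parted by more than 0.28 in a pool. Overfed pool 1 was the highest and lean pool 2 the lowest in both, and of the other 4 pools the lean ones lay above the overfed ones in both. Their ranges over the pools were at percentiles 98.8 and 98.1 among all probe sets. The differences were +0.31 (SE 0.43, 95% interval -0.71 to 1.33) and +0.19 (SE 0.40), and without overfed pool 1 they were -0.16 and -0.25. Overfed over lean folds of up to 2.51 in 1373970_at and 2.19 in 1389581_at lay within the 95% intervals, so changes of that size in Il33 could not be told from none with these pools.

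The pool order of the Il33 probe set 1373970_at was that of smooth muscle markers. The smooth muscle list, 10 of 10 genes measured, was added after the values were seen. It averaged 0.89, -0.34 and -0.53 in the overfed pools and 0.33, -0.88 and 0.65 in the lean pools, the order of probe set 1373970_at over all 6 pools. It had 3 genes higher and 7 lower, with a median difference of -0.042. At an unadjusted p under 0.05 it had 0 genes, where 2.63% of all genes were higher and 4.44% lower. A list of 8 stromal collagen and proteoglycan genes, added likewise, averaged 0.70, -0.21 and -0.048 in the overfed pools and 0.031, -0.41 and 0.38 in the lean pools. Luteal markers ran nearly the other way, averaging -0.48, 0.056 and 0.032 in the overfed pools and -0.11, 0.24 and -0.35 in the lean pools. The oviduct and ciliated epithelium list had -0.48, -0.20 and -0.67 in the overfed pools and 0.54, -0.0070 and 0.75 in the lean pools. Among the lean pools it had the order of 1373970_at but not that of 1389581_at, and it was low in overfed pool 1, where both Il33 probe sets were highest. The part of tissue makeup in the Il33 values was not tested.

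**Figure D3:**
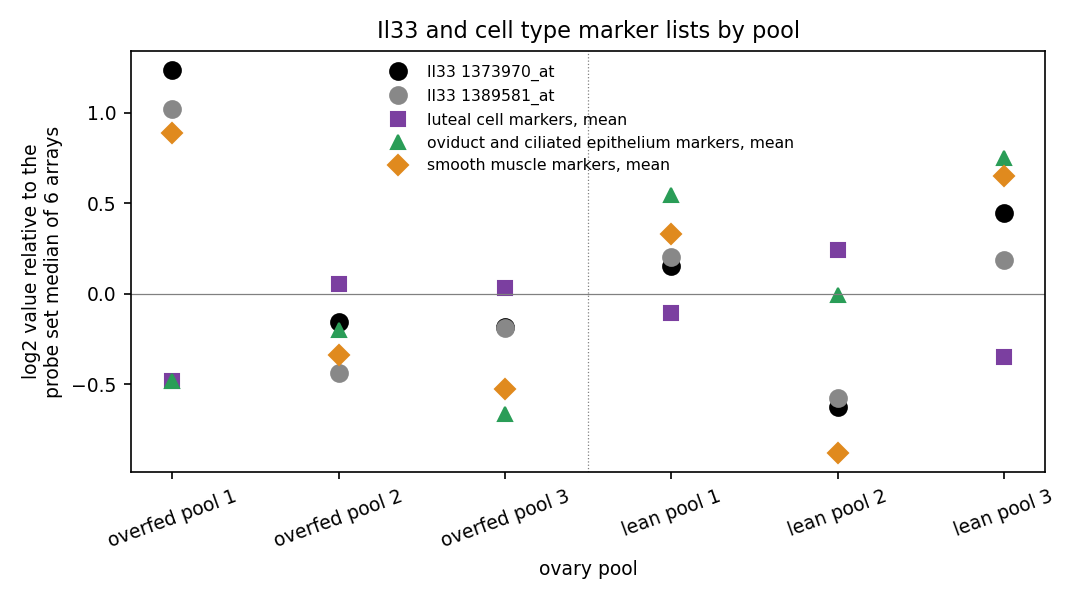
Log2 values relative to the probe set median (vertical axis) in each ovary pool (horizontal axis) for the 2 Il33 probe sets (circles) and for the means of 3 marker lists. In overfed pool 1, Il33 at 1.24 and 1.02 stands with smooth muscle markers at 0.89, while luteal and oviduct markers are both at -0.48.

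The 6 genes nearest to Il33 in profile had gaps of under 0.1. By the mean absolute gap to the average of both Il33 probe sets over the 6 pools, a measure chosen after the values were seen, the nearest of 14217 genes was Flnc, encoding the muscle filamin, with a gap of 0.013. Flnc was at 1.13, -0.32 and -0.20 in the overfed pools and 0.20, -0.60 and 0.30 in the lean pools. The collagen genes Col1a1 (gap 0.045) and Col6a1 (gap 0.084) and the tissue factor gene F3 (gap 0.089) came next, followed by the potassium channel subunit gene Kcnip4 (gap 0.094) and the Wnt inhibitor gene Apcdd1 (gap 0.096). The Col1a1 probe set used had an overfed minus lean difference of 0.22 (SE 0.40), and its other probe set one of -0.027 (SE 0.48). Another cytokine with a like order was Il12a, a subunit of interleukin-12, named after its values were seen. It was at 1.70, -0.24 and -0.35 in the overfed pools and 0.24, -0.50 and 0.60 in the lean pools.

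Il6, whose transcription depends on an NF-kappaB element near its start, was higher in every overfed pool than in any lean pool, by the narrowest margin of the 4 probe sets that separated. It had 0.040, 0.32 and 0.0049 in the overfed pools and -0.0049, -0.15 and -0.070 in the lean pools. Overfed pool 2 was high, and the nearest pools of the 2 groups were 0.0098 apart. The difference was +0.20 (SE 0.11, 95% interval -0.059 to 0.46, limma adjusted p = 0.829, exact permutation test p = 0.1). Without overfed pool 2 it was 0.098, and under array median centring or quantile normalization the groups overlapped.

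The promoter windows of the cytokines were searched for the NF-kappaB consensus, because these genes and the induced targets described further on are known to be read out through it. Windows of 300 bases, 250 before and 50 after the start, were taken from the RefSeq table of build GRCr8. They were available for 9 of the 10 genes, all but Csf1, with 2 for Il33. The consensus was found on either strand in 2 of 10 windows, those of Il6 and Ltb, and in 4.18% of 33465 windows of the same length. A match is a description of the letters and not of binding. Only exact matches within the 300 bases were counted, so a window without one does not show that a gene lacks NF-kappaB sites. The match begins 68 bases before the start in Il6 (chr4:5894526-5894825, minus strand) and 25 bases before it in Ltb (chr20:3634005-3634304, minus strand), where it lies on the opposite strand. Both windows are shown 5' to 3' along the gene, with the match in capitals.
Il6: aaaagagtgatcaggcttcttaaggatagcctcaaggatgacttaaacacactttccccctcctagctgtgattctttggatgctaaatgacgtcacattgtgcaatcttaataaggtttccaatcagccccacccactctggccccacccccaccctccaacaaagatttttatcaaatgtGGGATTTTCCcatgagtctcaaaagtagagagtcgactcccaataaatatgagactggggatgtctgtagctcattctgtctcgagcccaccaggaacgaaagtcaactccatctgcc
Ltb: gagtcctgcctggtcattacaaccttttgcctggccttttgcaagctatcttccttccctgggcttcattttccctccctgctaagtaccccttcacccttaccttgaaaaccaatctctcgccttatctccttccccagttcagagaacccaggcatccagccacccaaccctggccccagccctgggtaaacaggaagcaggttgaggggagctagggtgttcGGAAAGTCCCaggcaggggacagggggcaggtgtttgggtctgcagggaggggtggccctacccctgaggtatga

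Both probe sets of Tnf, the founding cytokine of its family, were higher by small amounts. The probe set 1387691_at, designed on a RefSeq mRNA, was at 0.017, 0.047 and 0.061 in the overfed pools and -0.026, -0.017 and -0.069 in the lean pools. It separated the groups by 0.034 within a range of 0.13, which was at percentile 2.8 among all probe sets. Its difference was +0.079 (SE 0.073, 95% interval -0.094 to 0.25, limma adjusted p = 0.887, exact permutation test p = 0.1). The other, 1391384_at, was at 0.24, -0.036 and 0.059 in the overfed pools and -0.012, -0.11 and 0.012 in the lean pools, overlapping, with a difference of +0.13 (SE 0.099). With 1 pool left out in turn, the first stayed between 0.063 and 0.091 and the second between 0.048 and 0.19.

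Ltb, the membrane-anchored partner of lymphotoxin alpha, which lymphocytes use in organizing lymphoid tissue, overlapped between the groups. It was at 0.18, -0.16 and 0.062 in the overfed pools and -0.14, -0.035 and 0.035 in the lean pools, with the highest and the lowest value both in overfed pools. The difference was +0.074 (SE 0.11, limma adjusted p = 0.938), and without overfed pool 1 it was -0.0032.

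Csf1, the macrophage growth factor, was read by 4 probe sets that did not move alike. The probe set 1380583_s_at, of a type that can match more than one transcript, was at -0.016, -0.20 and -0.48 in the overfed pools and 0.021, 0.031 and 0.016 in the lean pools. The lean pools were nearly equal and all overfed pools were lower, the nearest by 0.032. Its difference of -0.26 (SE 0.12, 95% interval -0.55 to 0.037, exact permutation test p = 0.1) had the lowest unadjusted p among the cytokines, 0.0782 (limma adjusted p = 0.801). Without overfed pool 1 the difference was -0.36 at an unadjusted limma p of 0.0158. Without both overfed pool 1 and lean pool 3 it was -0.37 at an unadjusted limma p of 0.02955. Without overfed pool 3, the lowest for this probe set, it was -0.13 at an unadjusted limma p of 0.227. With overfed pool 2 or any lean pool left out alone, the unadjusted limma p was 0.123 to 0.145.

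The other probe sets of Csf1 overlapped between the groups. The one designed on a RefSeq mRNA, 1369354_at, was at 0.0068, 0.067 and -0.17 in the overfed pools and -0.0068, 0.083 and -0.066 in the lean pools, a difference of -0.036 (SE 0.096). The probe sets 1380582_at and 1379631_at differed by -0.12 (SE 0.11) and +0.041 (SE 0.10). In overfed pool 3 the shared-type probe set was 0.31 to 0.49 from the other 3, which sat between -0.17 and 0.010 there.

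Csf2, the granulocyte and macrophage factor, also gave opposite signs. The probe set 1371228_at was at -0.27, 0.16 and -0.30 in the overfed pools and -0.065, 0.37 and 0.065 in the lean pools, a difference of -0.26 (SE 0.16, limma adjusted p = 0.836). Pool 2 was the highest of its group in both groups, and the groups overlapped. The probe set 1371227_at was at 0.079, -0.047 and -0.0074 in the overfed pools and 0.0074, 0.035 and -0.23 in the lean pools, a difference of +0.072 (SE 0.10). Without overfed pool 2 the difference of 1371228_at was -0.41 at an unadjusted limma p of 0.0328, and with the pool number as a replicate block its unadjusted limma p was 0.0354. Without lean pool 2 the difference was -0.14 at an unadjusted limma p of 0.432. With any other pool left out alone, the unadjusted limma p was 0.0967 to 0.366.

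If the values are log2, the intervals bound how large a difference in array signal could have been missed. Whether the signals lay above background is not known, so the intervals do not bound a change in cytokine RNA. For the 15 probe sets other than those of Il33, the 95% interval of the overfed over lean fold lay between 0.639 and 1.57. All 15 intervals lay within a 2-fold change in either direction, and 13 within a 1.5-fold change. The highest of the 6 values fell in overfed pool 1 for 6 probe sets, overfed pool 3 for 5, lean pool 2 for 4, and overfed pool 2 and lean pool 1 for 1 each. The lowest fell in lean pools for 10 and in overfed pools for 7.

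Receptors of these cytokines were next. The interleukin-18 receptor chains Il18r1 and Il18rap were not measured, which left 14 of 16 listed genes, each by 1 representative probe set. Of these, 8 lay above 0 and 6 below, with a median difference of 0.043, against 0.0072 over all genes. The median was -0.031 without lean pool 1, -0.0016 without overfed pool 2, 0.12 without overfed pool 1 and 0.018 when a gene's probe sets were averaged. At an unadjusted p under 0.05 there was 1 higher gene and 0 lower genes, where 2.63% of all genes were higher and 4.44% lower at that threshold, and 0 passed the adjusted threshold. The higher gene was Csf1r, the receptor of Csf1 and a macrophage marker. It was at 0.25, 0.024 and 0.25 in the overfed pools and -0.024, -0.10 and -0.076 in the lean pools. The groups did not overlap, and the difference was +0.24 (SE 0.094, unadjusted limma p = 0.0344, limma adjusted p = 0.719, exact permutation test p = 0.1). Macrophage markers, which include Csf1r, were higher in 14 of 18 measured genes with a median of 0.13. At an unadjusted limma p under 0.05, 4 of them, Csf1r included, were higher and 0 lower, where 2.63% of all genes were higher and 4.44% lower. Of these markers 0 passed the adjusted threshold. The list averaged 0.056, 0.026 and 0.12 in the overfed pools and -0.11, -0.082 and -0.017 in the lean pools, with Cd68 at +0.032 and Adgre1 at +0.21. Their part in Csf1r was not tested. With 1 of the 6 pools left out, Csf1r kept an unadjusted limma p under 0.05 in 1 case, that without overfed pool 2, and its difference ran from 0.21 to 0.32.

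The interleukin receptors did not pass. Il1rl1, which binds interleukin-33, had the largest difference at +0.54 (SE 0.27, limma adjusted p = 0.811), with 0.015, 0.078 and 0.92 in the overfed pools and -0.56, -0.019 and -0.015 in the lean pools. Overfed pools lay above lean pools there, with overfed pool 3 and lean pool 1 far from the rest, and Il33 itself was highest in overfed pool 1. The other Il1rl1 probe set went the other way, at -0.097 (SE 0.11). The signalling chain Il6st was at +0.30 (SE 0.15) with its other probe sets between 0.26 and 0.29, and the interleukin-1 receptor Il1r1 at +0.22 (SE 0.11). The adjusted p from limma was 0.808 for Il6st and 0.811 for Il1r1. This Il1r1 probe set did not overlap, its nearest pools being overfed pool 1 at 0.0054 and lean pool 1 at -0.0054, but the other 2 of its 3 probe sets were at -0.091 (SE 0.15) and -0.14 (SE 0.097). The accessory chain Il1rap (-0.13, and -0.18 in its other probe set) and the inhibitory receptor Sigirr (-0.14) were below 0, and the decoy receptor Il1r2 was at +0.056. The TNF receptors Tnfrsf1a and Tnfrsf1b were at +0.037 and +0.12, Ltbr at -0.082, Il6r at -0.034, the interleukin-18 binding protein Il18bp at -0.028, Csf2ra at +0.049 and Csf2rb at -0.00050.

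Enzymes that process and release the cytokines were measured by 7 of 14 listed genes, 5 higher and 2 lower, with a median of 0.11. At an unadjusted p under 0.05 there were 0, where 2.63% of all genes were higher and 4.44% lower. Casp1, the protease that matures interleukin-1 beta and interleukin-18, was at 0.15, 0.033 and 0.054 in the overfed pools and -0.083, -0.033 and -0.042 in the lean pools, without overlap. Its difference was +0.13 (SE 0.078, limma adjusted p = 0.829). The pore-forming Gsdmd (+0.13, SE 0.087), the TNF-shedding protease Adam17 (+0.13, SE 0.094) and the inflammasome adaptor Pycard (+0.11, SE 0.083) were of like size.

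Among 24 of 25 listed signal transducers, 11 were higher and 13 lower, with a median of -0.028, which was 0.025 without lean pool 3, 0.0014 without overfed pool 1 and 0.024 without both. At an unadjusted p under 0.05, 1 was higher and 1 lower, where 2.63% of all genes were higher and 4.44% lower. Irak2, a kinase of the interleukin-1 receptor complex, was at -0.041, -0.12 and -0.29 in the overfed pools and 0.31, 0.041 and 0.53 in the lean pools, a difference of -0.44 (SE 0.14, limma adjusted p = 0.671). Among the lean pools Irak2 had the order of the oviduct and ciliated epithelium list, and also of the smooth muscle and stromal collagen lists. Among the overfed pools it had the order of the smooth muscle list and not of the oviduct list. The part of these lists in Irak2 was not tested. Jak2, a kinase of the Il6st and Csf2 receptors, was at 0.16, 0.12 and -0.0019 in the overfed pools and -0.37, -0.21 and 0.0019 in the lean pools, a difference of +0.29 (SE 0.11, limma adjusted p = 0.727). Lean pool 3 lay just above overfed pool 3, so Jak2 overlapped. With 1 pool left out, the unadjusted limma p stayed under 0.05 in 5 of 6 cases for Irak2, losing it without overfed pool 3, and in 2 of 6 for Jak2, those without lean pool 3 or overfed pool 3. The NF-kappaB subunit Nfkb2 (-0.29, SE 0.13) and the kinase Chuk (+0.17, SE 0.087) did not reach the unadjusted threshold.

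Genes induced by the cytokines, and their feedback inhibitors, had 18 higher and 11 lower members of 29 measured, with a median of 0.036, which was 0.091 when a gene's probe sets were averaged and 0.096 without overfed pool 3. At an unadjusted p under 0.05, 1 was higher and 1 lower, where 2.63% of all genes were higher and 4.44% lower. The higher one was the monocyte chemokine Ccl2, at 0.27, 0.27 and 0.21 in the overfed pools and -0.89, -0.21 and -0.54 in the lean pools (+0.80, SE 0.17, limma adjusted p = 0.623). The overfed pools were close to each other and all above the lean pools. The lower one was Cish, a feedback inhibitor of STAT5 signalling. It was at -0.20, -0.15 and -0.099 in the overfed pools and 0.25, 0.15 and 0.099 in the lean pools, without overlap, a difference of -0.32 (SE 0.082, limma adjusted p = 0.623), and its other probe set was at -0.18 (SE 0.10). Ccl2 and Cish kept an unadjusted limma p under 0.05 under all 12 alternatives run. The acute phase gene Saa3 was at +0.33 (SE 0.16) and the endothelial selectin Sele at +0.43 (SE 0.23). The classic NF-kappaB feedback genes Nfkbia and Tnfaip3 were at -0.066 and 0.012, and the interleukin-6 feedback gene Socs3 at +0.14. The TNF-induced gene Tnfaip2 was at -0.018 in its representative probe set, but its other 3 were at -0.28 (SE 0.11), -0.34 (SE 0.17) and -0.60 (SE 0.12). The first and last of these were at an unadjusted limma p under 0.05.

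**Figure D4:**
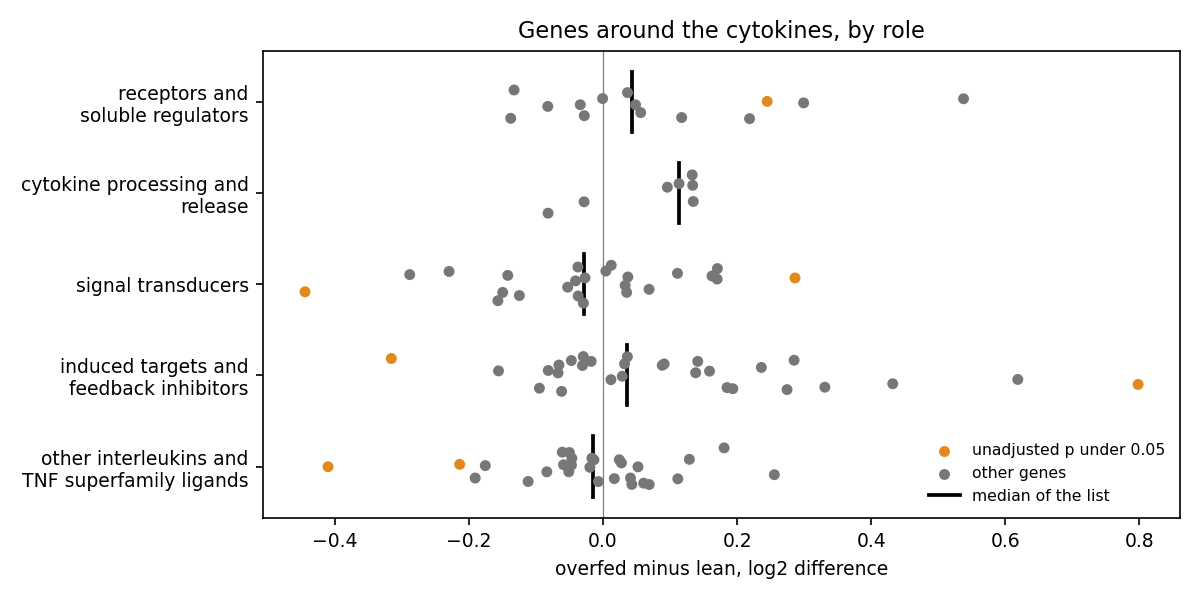
Overfed minus lean differences on the log2 scale (horizontal axis) of the genes in 5 lists by role (rows), 1 representative probe set per gene. Points are genes, orange at an unadjusted p under 0.05, and black bars are list medians, which run from -0.028 to 0.11.

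The other interleukins and TNF superfamily ligands had 12 higher and 16 lower members of 28 measured, with a median of -0.015, which was 0.011 without overfed pool 2. At an unadjusted p under 0.05, 0 were higher and 2 lower, both of the TNF superfamily, where 2.63% of all genes were higher and 4.44% lower. Tnfsf13, which supports plasma cells, was at -0.27, -0.00090 and -0.16 in the overfed pools and 0.35, 0.00090 and 0.45 in the lean pools, a difference of -0.41 (SE 0.14, limma adjusted p = 0.693), and its other probe set was at -0.37 (SE 0.15). Tnfsf13 shared the order of the lean pools with the oviduct and ciliated epithelium, smooth muscle and stromal collagen lists. Among the overfed pools its order was that of none of these lists, and their part in Tnfsf13 was not tested. Tnfsf11, the ligand of the osteoclast receptor RANK, differed by -0.21 (SE 0.083, limma adjusted p = 0.722) and by -0.080 (SE 0.085) in its other probe set. With 1 pool left out, Tnfsf13 and Tnfsf11 each kept an unadjusted limma p under 0.05 in 2 of 6 cases, Tnfsf13 without lean pool 2 or overfed pool 2 and Tnfsf11 without lean pool 1 or overfed pool 2. Il15 at +0.18 and Il17b at -0.19 did not reach the unadjusted threshold, and Lta, the partner of Ltb, was at 0.028.

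Marker lists of immune and ovarian cells lay on both sides of 0. Neutrophil markers were higher in 5 of 6 genes (median 0.15), averaging 0.22, 0.47 and 0.043 in the overfed pools and -0.043, -0.39 and -0.081 in the lean pools. S100a8 was at +1.08 and S100a9 at +1.12, and the other measured genes lay between -0.068 and +0.20. S100a8 and S100a9 weighed most in the averages, at 1.59 and 1.34 in overfed pool 2 and -1.20 and -1.16 in lean pool 2. T and NK cell markers were higher in 10 of 12 genes (median 0.070), with Cd3d at +0.19 and Cd3e at +0.10. B and plasma cell markers were lower in 5 of 6 (median -0.24), with Ms4a1 at -0.33 and Cd79b at +0.12. Of the ovary's own cells, granulosa markers were higher in 8 of 10 genes (median 0.14, Cyp19a1 at +0.45 and Amh at +0.33), luteal markers lower in 6 of 8 (median -0.057, Star at -0.17 and Cyp11a1 at -0.093) and endothelial markers lower in 4 of 6 (median -0.0030, Pecam1 at -0.12 and Kdr at 0.018). At an unadjusted limma p under 0.05, 1 neutrophil and 1 granulosa gene were higher and 2 B and plasma cell genes lower. The T and NK cell, luteal and endothelial lists had 0. Over all genes 2.63% were higher and 4.44% lower at that threshold. None of these marker genes passed the adjusted threshold in limma, and their part in the cytokine values was not tested.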

How the data were processed

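Ovary RNA was isolated with TRI reagent, cleaned on RNeasy columns and labelled with biotin for Affymetrix arrays, per the labels' protocols. The submitters' processing notes name GCOS, without version. The probe set summary, normalization and logarithm base could not be taken from these sources. Deposited values, taken as log2, had been centred: the median over 6 arrays was 0 within 5e-07 in each of 31099 probe sets. Base 10 would make the largest range, 6.22, exceed a 16-bit scanner. Natural logarithms remain possible, and folds would then be too small.

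Of 31042 probe sets left without 57 array controls, 20826 had 1 gene name, 436 several and 9780 none here, and 20758 identifiers were in the RefSeq gene table. The table held 0 columns of other series. A gene's representative in lists was chosen by RefSeq mRNA, unique type, then lowest identifier. The overfed and lean pools were compared in limma 3.58.1 (R 4.3.3; lmFit, eBayes, no covariate or trend, two-sided, Benjamini-Hochberg). The script was tested on simulated data. Figures used matplotlib 3.10.9.

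Members and lists were chosen with earlier results of these data known. Named were all cytokine probe sets, all their measured receptors, and in each other list the 4 genes of lowest unadjusted p, with the first 2 measured markers of a cell type. Nfkbia, Tnfaip2, Tnfaip3, Socs3, Lta, Il12a and the genes nearest to Il33 were named beside that rule. Same-numbered pools were not paired by the labels. Alternatives were quantile normalization, array median centring, a robust prior, array weights, a replicate block and leaving out pools.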

Additional observations from a re-analysis of the deposited data

How the results depend on the processing

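The count of 0 cytokine probe sets at an unadjusted p under 0.05 in limma stayed at 0 under 7 of 12 alternatives. It was 1 with array weights, and 1 when lean pool 3 and overfed pool 1 were both left out, each time the Csf1 probe set 1380583_s_at, and 1 with the replicate block, the Csf2 probe set 1371228_at; leaving out 1 pool gave 0 to 1. The count without overlap was 3 under array median centring and under quantile normalization, losing Il6, and 4 to 8 with 1 pool left out, where fewer samples make separation easier. Their median difference of 0.074 became 0.019 with array weights, 0.041 with quantile normalization and 0.037 without lean pool 3 and overfed pool 1, and ran from -0.0032 to 0.0994 with 1 pool left out. No probe set of the array passed the adjusted threshold in limma under any of the 12 alternatives, while 1513 to 2267 passed unadjusted. Signs turned in Il1rn (-0.0030 with array median centring, -0.0021 with array weights, -0.0042 with quantile normalization, -0.10 to 0.070 with 1 pool left out), Il33 1389581_at (-0.00070 with array weights, -0.022 with quantile normalization, -0.13 without lean pool 3 and overfed pool 1, -0.25 to 0.48 with 1 pool left out) and Il33 1373970_at (-0.16 to 0.55 with 1 pool left out). They also turned without lean pool 3 and overfed pool 1 in Csf1 1379631_at (-0.0057) and Csf2 1371227_at (-0.048), and with 1 pool left out in these (-0.035 to 0.11 and -0.013 to 0.12), Ltb (-0.0032 to 0.17) and Csf1 1369354_at (-0.086 to 0.034). The cause was not tested.

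The pool numbers did not pair the samples: the correlations of same-numbered pools' deviations over probe sets were 0.097, 0.17 and -0.28. With the replicate block 1757 probe sets had an unadjusted p under 0.05, against 2070. The number of pools and unknown signal over background limit what could be detected.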
